A study of Mus musculus with 8 samples.

Results

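Expression of 10 genes of the Notch pathway was followed in GFP-positive cells sorted from mouse embryos: the receptors Notch1, Notch3 and Notch4, the ligands Dll4, Jag1 and Jag2, and the target genes Hey1, Hey2, Hes1 and Hes5. They were taken as 10 named genes from the 18193 genes on the array, and each was read from its brightest probe set (by mean over the 8 arrays) that names no other gene. The members had 19 probe sets in all. The cells came from cortex or lungs of homozygous Tie2-GFP embryos at E13.5, with 4 arrays for each tissue, numbered 72, 22, 19 and 18 in both. In this transgene GFP is under the control of the Tek (Tie2) promoter, active in endothelium, and both tissues carried it. A replicate was the pooled material of a litter of 10 to 13 embryos, and no animal was treated. The cortex had been freed of meninges and choroid plexus. The comparison asks how vessels of the brain, where the blood-brain barrier forms, differ from those of another organ.

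Notch receptors are surface proteins that are cut when a ligand on a neighbouring cell binds them. The freed inner part enters the nucleus, joins the DNA-binding protein Rbpj and switches on repressors of the Hes and Hey families. In growing vessels Dll4 and Notch1 restrain sprouting and specify arteries, while in the embryonic cortex the same pathway holds neural progenitors back from becoming neurons. Members known mainly from endothelium (Notch4, Dll4, Jag1, Jag2, Hey1 and Hey2) are therefore kept apart here from Notch1 and Hes1, which both endothelium and neural progenitors use, from Notch3, known from mural cells and progenitors, and from Hes5, known from progenitors.

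Values are log2 expression on the deposited scale, and differences are cortex minus lung. Hes5 rose in cortex and was the only member called, that is, with an adjusted p from limma under 0.05 after Benjamini-Hochberg correction over all genes. That is 1 of 10 members, against 18.1% of all genes. In the direction of cortex it is 1 of 10, against 10.4% of all genes. Towards lung 0 of 10 were called, against 7.71% of all genes, and 1 member (Hey2) lay below an unadjusted p of 0.05 in that direction. For 1 of 10 members all cortex arrays lay on the same side of all lung arrays, against 24.5% of all genes. The share of members called thus did not exceed that of genes at large. Of the 6 endothelial members 0 were called, and cortex had the lower mean for 5 of them. The median difference was -0.60 over these 6 members, -0.16 over all 10 and -0.09 over all genes.

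**Figure D1:**
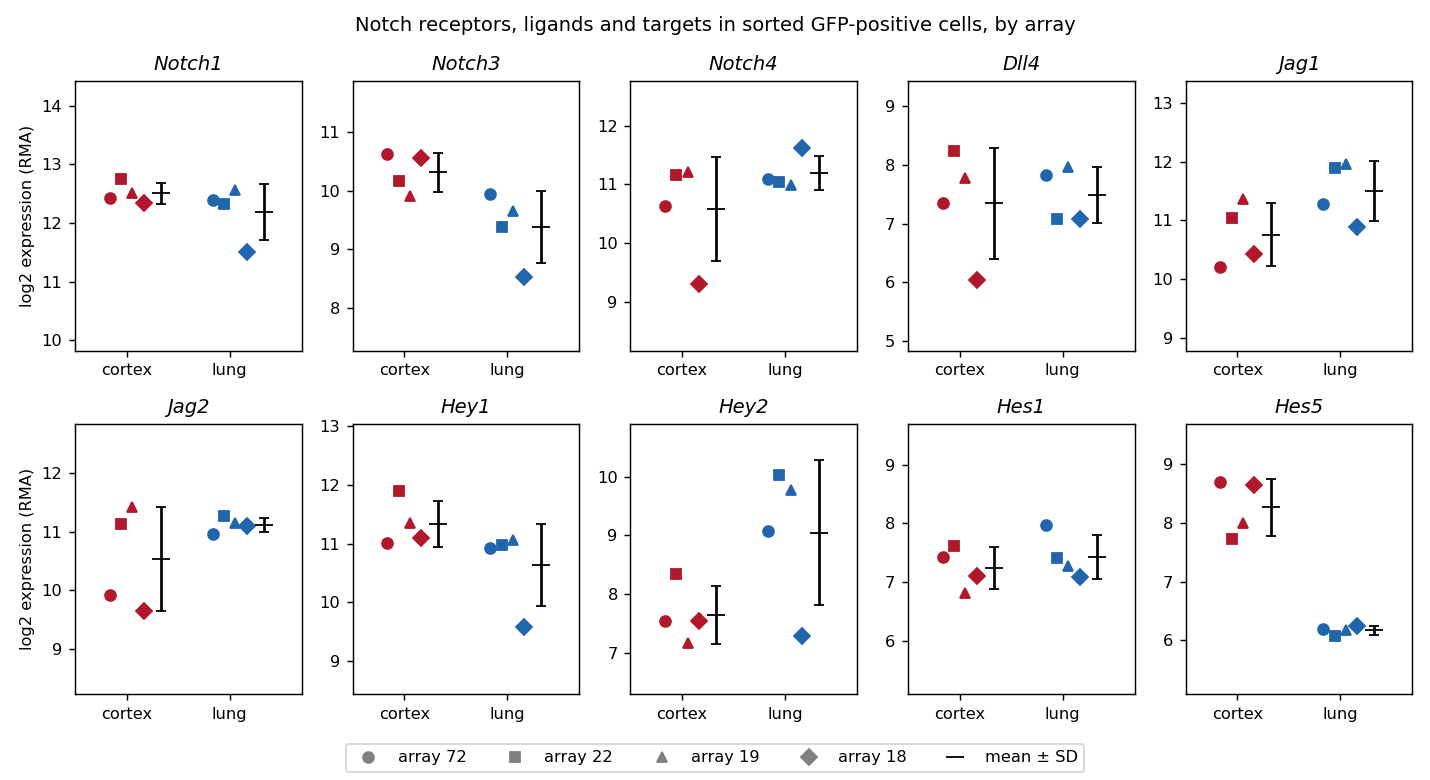
Log2 expression (vertical axis, each panel spanning the same range of log2 units) of the 10 members on each of 4 cortex arrays (red) and 4 lung arrays (blue); symbols give the array number, and bars the mean and SD of a tissue. Hes5 is the member whose tissues do not overlap, and lung array 18 is the lowest lung array for 6 members.

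The arrays carried transcripts of several cell types. The mean of 26 pan-endothelial genes lay between 9.05 and 10.96 on the cortex arrays and between 11.15 and 11.75 on the lung arrays. Of the 26 genes 10 were higher in lung, 0 in cortex (0 at an unadjusted p under 0.05 in that direction, limma) and 16 were not called. Tek itself, whose promoter drives the sort marker, was at 11.70 ± 0.84 in cortex and 12.93 ± 0.28 in lung, and the endothelial adhesion genes Pecam1 and Cdh5 averaged 8.98 and 8.39 in cortex and 10.46 and 9.65 in lung. Tek, Pecam1 and Cdh5 were not called (limma, adjusted p = 0.0575, 0.149 and 0.225). Differences over the list were uneven, from -3.93 for Gpr182 to 0.11 for Flt1. Within cortex the list mean was 10.96 for array 19, 10.80 for 22, 9.49 for 72 and 9.05 for 18. The mean of 10 neuron genes ran from 10.99 to 11.55 in cortex and from 6.57 to 6.62 in lung, and that of 10 progenitor genes from 10.25 to 11.19 and from 6.35 to 6.86. The mean of 8 mesenchyme genes ran from 5.75 to 6.55 in cortex and from 7.56 to 10.12 in lung. That of 8 macrophage genes ran from 5.86 to 9.12 and from 5.72 to 7.0. Lung epithelial genes (8) averaged 5.46 to 6.77 and 6.41 to 7.79, and erythroid genes (7 of 8 measured) 6.64 to 7.56 and 5.99 to 6.37. Lung array 18 had the lowest lung mean for each of these lists except the erythroid genes. It also had the lowest spread over probe sets (SD 2.37, against up to 2.54). It was the lowest lung array for Notch1, Notch3, Jag1, Hey1, Hey2 and Hes1 and the highest for Notch4 and Hes5. In such sorted bulk samples, fewer cells of a type and less RNA per cell cannot be told apart. For the arrays numbered 19 and 18 (4 samples) the descriptions name the opposite tissue to the titles, and groups follow the titles. Neuron means went with the titles, at 10.99 and 11.51 on cortex 19 and 18 and 6.58 and 6.57 on lung 19 and 18.

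Among the receptors, Notch1, the main receptor of sprouting endothelium and also of neural progenitors, was not called between tissues. Its cortex values were 12.42, 12.74, 12.51 and 12.34 for arrays 72, 22, 19 and 18, and its lung values 12.38, 12.32, 12.57 and 11.50 in the same order. The tissues overlapped, and the low value was that of lung 18. The difference was 0.31 (95% confidence interval -0.23 to 0.85, adjusted p = 0.404). The other Notch1 probe set gave 0.27. Without lung 18 the difference was 0.08.

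Notch4, a receptor found mainly on endothelium, lay at 10.63, 11.16, 11.21 and 9.31 in cortex and at 11.09, 11.04, 10.99 and 11.62 in lung. Lung arrays were close together apart from 18, the highest, whereas cortex 18 was far below the other cortex arrays. The difference was -0.61 (-1.53 to 0.31, adjusted p = 0.343), and it became -0.04 without both arrays numbered 18. Within cortex the order of the arrays was that of their pan-endothelial means, highest for 19 and lowest for 18. Within lung the order was the reverse of that of the means, with Notch4 highest on 18, where the pan-endothelial mean was lowest (11.15). A second probe set gave -0.56, and the third, at 3.42 ± 0.03 in cortex and 3.51 ± 0.04 in lung (SD, n = 4 each), was without a call and lay near the lowest values of the arrays, which start at 2.82.

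Notch3, the receptor of pericytes and smooth muscle that neural progenitors also express, had the higher mean in cortex without passing the test. Its values were 10.62, 10.17, 9.91 and 10.56 in cortex and 9.95, 9.39, 9.65 and 8.52 in lung. Lung 72, the highest lung array, lay just above cortex 19, the lowest cortex array, and this was the only overlap. The difference was 0.94 (0.23 to 1.65, adjusted p = 0.0721), and Notch3 was called without lung 72 (1.13, adjusted p = 0.042). Its other probe set differed by 0.89 (adjusted p = 0.342 over all probe sets).

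Mural genes had no common direction between tissues. Of 12 listed genes of pericytes and smooth muscle, 2 were higher in cortex (Rgs5, a regulator of G-protein signalling, by 2.20 and the matrix protein Vtn by 3.03). Smooth muscle actin Acta2 (-4.66), the actin-binding protein Tagln (-2.05) and the peptidase Anpep (-3.01) were higher in lung, and 7 were not called. The mean of the list ran from 6.45 to 6.79 in cortex and from 6.50 to 7.97 in lung. Within lung its order over arrays was that of Notch3, with 7.97 for 72, 7.29 for 19, 7.07 for 22 and 6.50 for 18. That order was not particular to mural genes. The mesenchyme, lung epithelial and macrophage means shared it in lung, and the pan-endothelial, progenitor, neuron and erythroid means did not. In cortex the higher Notch3 values were those of arrays 72 and 18, which had the lower pan-endothelial means. The part of mural cells and progenitors in the Notch3 values was not tested.

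Dll4, the ligand of endothelial tip cells and arteries, was not called and had the smallest difference of the 3 ligands. It lay at 7.35, 8.24, 7.78 and 6.03 in cortex and at 7.83, 7.08, 7.96 and 7.08 in lung. The spread within cortex, an SD of 0.95, was much wider than the difference of -0.14 (-1.18 to 0.90, adjusted p = 0.857). The sign turned without cortex 18 (0.30), and the second probe set gave -0.24. An interval this wide still holds a change of about 1 log2 unit in either direction.

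Jag1, a ligand of endothelium and smooth muscle that acts against Dll4 in sprouting, had the lower mean in cortex. Its values were 10.20, 11.04, 11.36 and 10.43 in cortex and 11.27, 11.89, 11.96 and 10.88 in lung. The tissues overlapped, since cortex 22 and 19 lay above lung 18. The difference was -0.74 (-1.50 to 0.01, adjusted p = 0.163). Its 2 other probe sets gave -1.06 and -1.01 (adjusted p = 0.114 and 0.0892 over all probe sets), so 3 of 3 had the same sign. With array quality weights, which give less weight to arrays that scatter more, Jag1 was called (-0.94, adjusted p = 0.041).

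Jag2, a related ligand, was at 9.93, 11.14, 11.43 and 9.64 in cortex and at 10.96, 11.26, 11.14 and 11.10 in lung. Lung arrays lay within a narrow band (SD 0.13), while cortex fell into a pair of arrays at the lung level, 22 and 19, and a pair below it, 72 and 18. The difference of -0.58 (-1.47 to 0.30) was not called (adjusted p = 0.342), and without cortex 72 and 18 it was 0.17. As for Notch4, the order of the cortex arrays was that of their pan-endothelial means, and the order of the lung arrays was not.

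**Figure D2:**
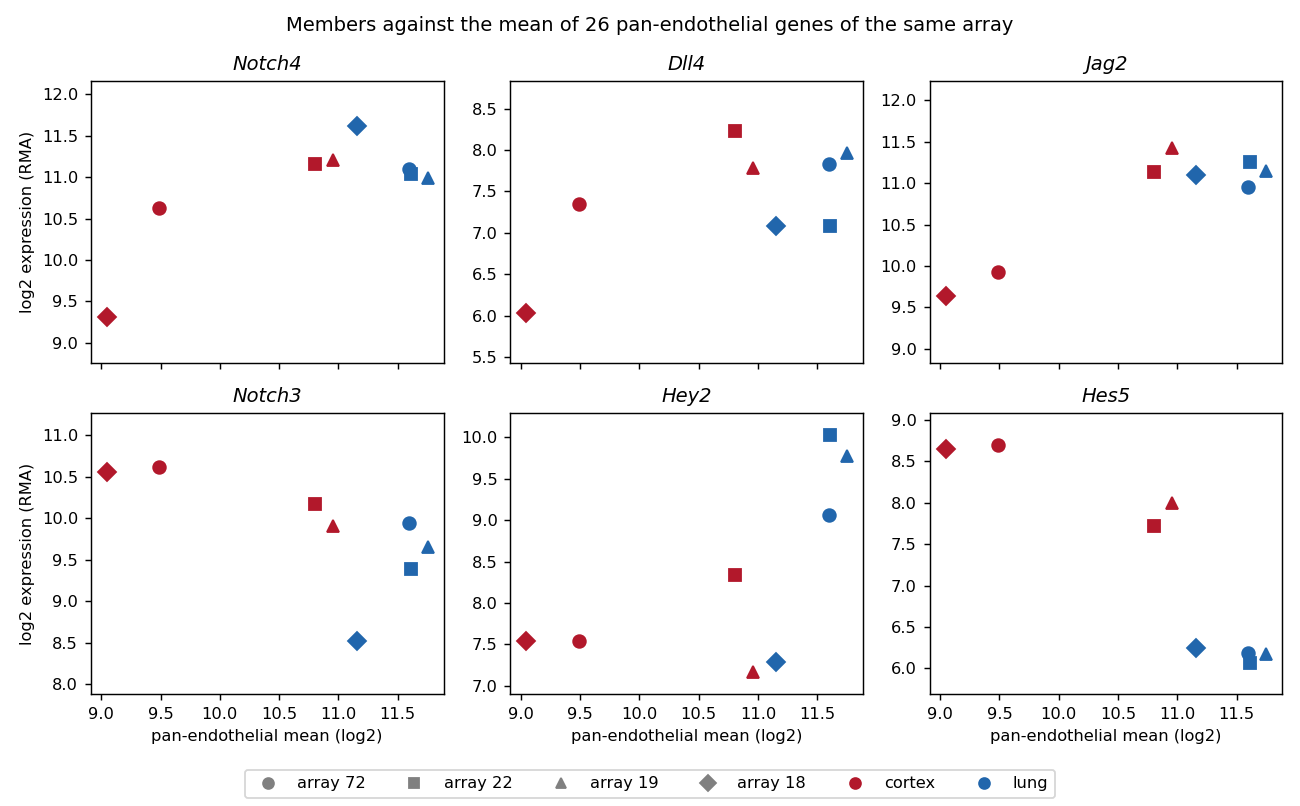
Log2 expression of 6 members (vertical axis) against the mean log2 value of 26 pan-endothelial genes of the same array (horizontal axis), with cortex arrays in red and lung arrays in blue. Over the cortex arrays Notch4 and Jag2 are low on arrays 72 and 18, where the pan-endothelial mean is 9.49 and 9.05, and Hes5 and Notch3 are high there.

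Hes5, the repressor through which Notch maintains neural progenitors, was measured at 8.70, 7.73, 8.0 and 8.64 in cortex and at 6.19, 6.07, 6.18 and 6.25 in lung. Every cortex array lay above every lung array, and the lung arrays scarcely differed (SD 0.07, against 0.48 in cortex). The gene was 4.28-fold higher in cortex, a difference of 2.10 (1.57 to 2.62, adjusted p = 0.000386). It was called under each of the 21 alternative settings, with adjusted p from 3.79e-08 to 0.00563. The lowest value came from scaling arrays to an equal pan-endothelial mean, where 59.9% of all genes were called towards cortex. The next lowest was 7.41e-05. A second probe set stood at 8.33 ± 0.51 in cortex and 5.04 ± 0.22 in lung and gave 9.76-fold (adjusted p = 0.000106 over all probe sets). The size of the difference thus depended on the probe set, and the cause was not tested.

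Progenitor and neuron transcripts also differed between tissues. Of 10 genes of radial glia and progenitors 8 were higher in cortex, with a median difference of 4.78, among them Sox2 (6.91) and Pax6 (4.48). The intermediate filament gene Vim (-0.17) and the homeodomain gene Hopx (1.87) were not called. All 10 neuron genes were higher in cortex, with a median difference of 5.08. Within cortex, Hes5 was higher on arrays 72 and 18, with pan-endothelial means of 9.49 and 9.05, than on 22 and 19, with 10.80 and 10.96. Neuron genes averaged 11.55 and 11.51 on the former and 11.10 and 10.99 on the latter. Progenitor means did not follow that order, with 10.93 and 10.78 on the former and 11.19 and 10.25 on the latter. The part of progenitors or neurons in the Hes5 values was not tested.

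Hes1, a target shared by endothelium and progenitors, did not follow Hes5. It lay at 7.43, 7.62, 6.82 and 7.09 in cortex and at 7.96, 7.40, 7.27 and 7.08 in lung, with the ranges overlapping. The difference was -0.19 (-0.74 to 0.36, adjusted p = 0.622). The log2 ratio of the Hes5 to the Hes1 probe set within an array was between 0.11 and 1.55 on the cortex arrays and between -1.77 and -0.84 on the lung arrays. Ratios were computed for 5 pairs of members, chosen after their values were seen and with no test. They did not overlap between tissues for 2 pairs, this and Hey1 with Hey2, and overlapped for 3, Notch3 with Notch4, Jag1 with Dll4 and Jag1 with Jag2. How often ratios of other gene pairs overlap was not computed.

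Hey1 and Hey2, the Hes-related targets of arterial endothelium and heart, pointed opposite ways. Hey1 lay at 11.01, 11.89, 11.35 and 11.09 in cortex and at 10.92, 10.97, 11.06 and 9.58 in lung. Apart from lung 18 the lung arrays were just below the cortex arrays, and lung 19 overlapped with cortex 72. Its difference was 0.70 (-0.11 to 1.51, adjusted p = 0.221), or 0.35 without lung 18. Hey2 lay at 7.55, 8.33, 7.16 and 7.54 in cortex and at 9.07, 10.03, 9.78 and 7.29 in lung, where array 18 again stood below the rest and inside the cortex range.

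The Hey2 difference was -1.40 (-2.69 to -0.10, adjusted p = 0.131) over all arrays. Hey2 was called higher in lung without lung 18 (-1.98, adjusted p = 0.00639), without both arrays numbered 18 (-1.94, adjusted p = 0.0189) and with array quality weights (-1.82, adjusted p = 0.00998), and its adjusted p over all alternatives ran from 0.00639 to 0.927. The log2 ratio of Hey1 to Hey2 within an array was 3.47, 3.55, 4.18 and 3.55 in cortex and 1.85, 0.94, 1.29 and 2.29 in lung. Each gene alone overlapped between tissues. The pair was chosen after the opposite signs of its genes were seen, so the separation of its ratio is no independent result.

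**Figure D3:**
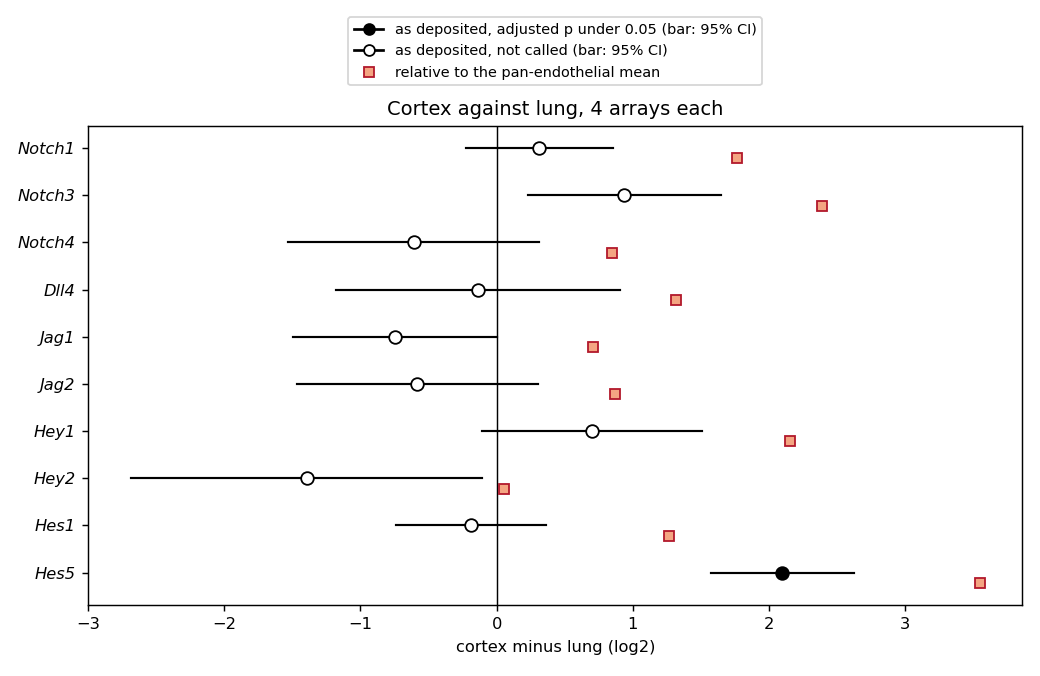
Difference between cortex and lung (horizontal axis, log2) for the 10 members: circles give the difference on the deposited scale with its 95% confidence interval, filled where adjusted p was under 0.05, and squares the same difference after each array was shifted to an equal pan-endothelial mean. Hes5 is the filled circle at 2.10, and Hey2 has its square at 0.06.

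The members were also read relative to the endothelial genes of each array, which adds the same amount to every difference and leaves the order of the members as it was. After a shift that gave all arrays an equal pan-endothelial mean, the median gene lay 1.37 higher in cortex and 59.9% of all genes were called higher there. Against 10903 genes towards cortex, 129 were then called towards lung, where the deposited scale gave 1888 and 1403. Called towards cortex were 5 of 10 members, Notch1 (1.77), Notch3 (2.39), Dll4 (1.32), Hey1 (2.15) and Hes5 (3.55), and 0 towards lung. All 10 differences were positive on this scale, and 6 (Notch4, Dll4, Jag1, Jag2, Hey2 and Hes1) lay below the median gene, as they did on the deposited scale. Limma gave every gene the same SE of 0.588 here, so a call is in effect a limit on the size of the difference.

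The spread of the endothelial members around the pan-endothelial mean differed by gene and tissue. Within cortex the SD was smaller for Notch4 (0.43, from 0.89), Dll4 (0.47, from 0.95) and Jag2, close for Jag1 (0.51, from 0.54), and was wider for Hey1 (0.70, from 0.40) and Hey2 (0.99, from 0.49). Within lung it was wider for Notch4 (0.55, from 0.29) and Jag2 (0.27, from 0.13) and smaller for the other 4. Jag2 minus that mean was 0.44, 0.33, 0.47 and 0.59 in cortex, an SD of 0.11 against 0.88 for Jag2 itself. In lung it was -0.64, -0.35, -0.61 and -0.05, below every cortex array. Dll4 minus the mean ranged from -3.17 to -2.14 in cortex and from -4.53 to -3.77 in lung, again with no overlap. On this scale 6 of 10 members (Notch1, Notch3, Dll4, Jag2, Hey1 and Hes5) and 46.2% of all genes did not overlap, and Dll4 lay close to the median gene (-0.05 relative to it). Jag1, Notch4, Hes1 and Hey2 overlapped on this scale, Hey2 with a difference of 0.06 (adjusted p = 0.927). The Hey2 difference on the deposited scale (-1.40) lay close to that of the pan-endothelial list mean (-1.45). Within cortex, however, Hey2 was lowest on array 19 (7.16), where the pan-endothelial mean was highest (10.96). The part of endothelial content in the Hey2 values was not tested.

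Upstream sequence was available for 8 of the 10 members, from RefSeq on GRCm38.p6. The targets Hey1 and Hes1 had none and were not searched. Rbpj binds a core written TGGGAA, and the 250 bases before the start were searched for it on both strands. It occurred in 2 of 8 member promoters, those of the targets Hes5 and Hey2, and in 21.6% of the 32851 promoters in the table. The longer form GTGGGAA, which contains the core, occurred in the same 2 and in 5.42% of all. Hes5 carried it 226 bases before the start on the other strand and 83 bases before the start on its own strand. Hey2 carried it 207 bases before the start on the other strand. It occurred once more across the Hey2 start, from 4 bases before it, and so runs past the end of the stretch shown. The letters CACGNG, a site class bound by Hes and Hey proteins, occurred before the start of 3 of 8 (Notch3, Dll4 and Jag1) and in 23.5% of all promoters. A match shows letters only, not binding.

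The stretches are shown for Hes5, the member called, for Hey2, the other searched target with the core, and for Dll4, an endothelial ligand without it. All are given 5′ to 3′ on the gene's strand with the TGGGAA core or its complement in capitals. They lie at chr4:154960673-154960922 on the plus strand (Hes5), chr10:30842784-30843033 on the minus strand (Hey2) and chr2:119325534-119325783 on the plus strand (Dll4), immediately upstream of the annotated start.
Hes5: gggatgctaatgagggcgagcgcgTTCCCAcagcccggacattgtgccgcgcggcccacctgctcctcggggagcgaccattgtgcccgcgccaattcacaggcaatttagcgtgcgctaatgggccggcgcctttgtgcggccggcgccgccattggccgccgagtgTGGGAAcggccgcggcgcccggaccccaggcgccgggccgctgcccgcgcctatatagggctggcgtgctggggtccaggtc
Hey2: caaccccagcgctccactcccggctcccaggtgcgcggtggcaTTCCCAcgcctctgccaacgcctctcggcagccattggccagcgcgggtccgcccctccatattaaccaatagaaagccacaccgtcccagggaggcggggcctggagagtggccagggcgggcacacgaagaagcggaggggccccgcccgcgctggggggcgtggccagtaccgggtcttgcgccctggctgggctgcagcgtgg
Dll4: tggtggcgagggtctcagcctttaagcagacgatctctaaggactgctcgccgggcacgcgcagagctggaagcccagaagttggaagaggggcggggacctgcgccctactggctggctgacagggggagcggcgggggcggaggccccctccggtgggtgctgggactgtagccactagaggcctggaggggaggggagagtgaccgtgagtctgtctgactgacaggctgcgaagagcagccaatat

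The wider pathway was read from lists of 72 further genes, of which 68 were measured. Towards cortex 14 of 68 were called, against 10.4% of all genes, and towards lung 4 of 68, against 7.71%, while 50 did not pass. The median difference was 0.08. Among other receptors and ligands 2 of 10 were higher in cortex, 2 in lung and 6 not called. Dner, a neuronal ligand-like protein, was 47.5-fold higher in cortex (12.44 ± 0.42 against 6.88 ± 0.57, adjusted p = 1.28e-05). Dll3, a Delta-like protein of neural cells that acts within the signal-receiving cell, stood at 8.06, 7.38, 6.86 and 7.08 in cortex and at 5.61, 5.98, 5.98 and 5.72 in lung (2.88-fold, adjusted p = 0.00379), with no overlap. Higher in lung were the microfibril protein Mfap5 (18.5-fold, adjusted p = 1.53e-05) and Egfl7, a secreted endothelial protein that is also in the pan-endothelial list (2.37-fold, adjusted p = 0.028). The call of Egfl7 ended without cortex 72 or any 1 of the lung arrays, at -1.12 to -1.26, and 1 of its 3 other probe sets was also called.

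Notch2 and Dll1 did not pass. The receptor Notch2 was at 12.18 ± 0.27 in cortex and 11.13 ± 0.68 in lung (difference 1.05, adjusted p = 0.0568). Its tissues did not overlap, and it was called under 5 of 21 alternatives, among them without lung 72 (adjusted p = 0.0261). A second Notch2 probe set, at 5.86 in cortex and 6.21 in lung, had the opposite sign without a call. Dll1, the ligand of committed neural cells, lay at 7.79 ± 0.59 and 7.21 ± 0.51 (adjusted p = 0.287).

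Among 12 other targets and Hes genes 4 rose in cortex, 0 were called towards lung (0 at an unadjusted p under 0.05 in limma) and 8 were not called. Hes6, a Hes relative that promotes neuronal differentiation, was at 12.31, 12.07, 11.89 and 12.39 in cortex and 10.54, 10.73, 10.40 and 10.69 in lung (2.98-fold, adjusted p = 0.00023). The tissues were far apart, and its second probe set gave 1.47 against 1.58 for the first. The progenitor genes Id4 (24.8-fold) and Sox9 (7.38-fold) and the Notch regulator Dtx1 (5.85-fold) also rose. Other probe sets of Sox9 and Dtx1 near the low end did not (0.22 and -0.10 for Sox9, -0.18 for Dtx1). Nrarp, a feedback inhibitor that endothelium and progenitors induce, stood at 11.66, 12.18, 12.01 and 11.43 in cortex and 11.40, 10.99, 11.13 and 10.27 in lung, all cortex arrays above all lung arrays, yet did not pass (0.87, adjusted p = 0.0563). It was called under 7 of 21 alternatives, among them without lung 72. Heyl, a target of mural cells, was not called (5.95 ± 0.18 against 6.46 ± 0.73, adjusted p = 0.334).

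**Figure D4:**
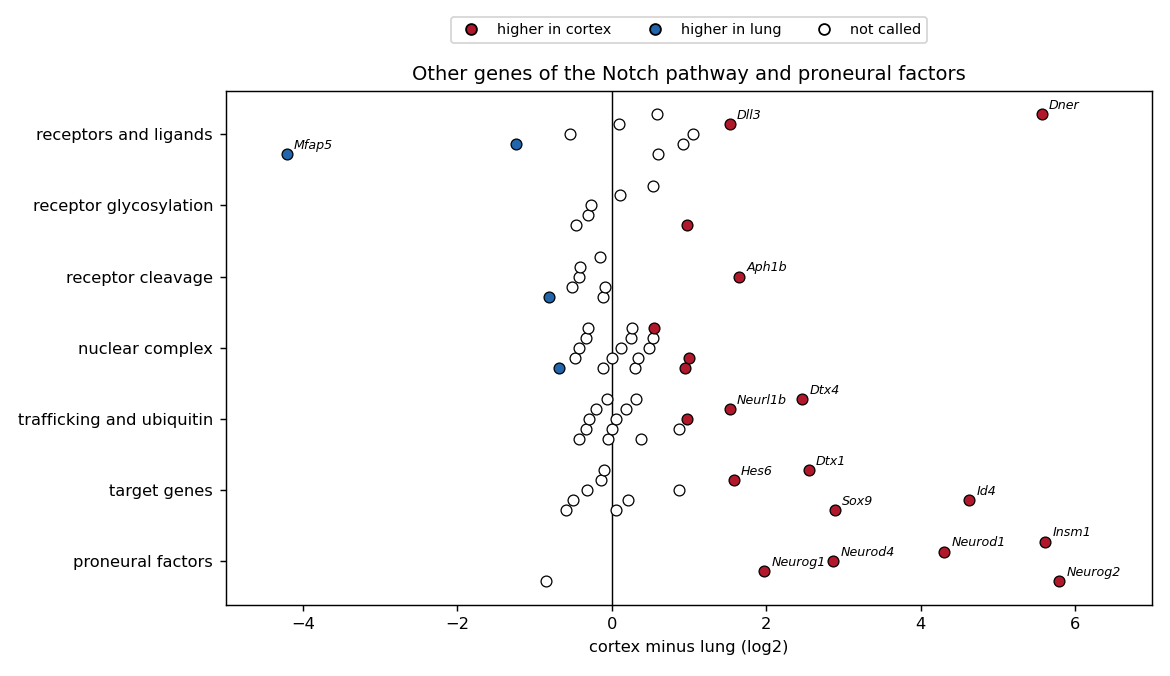
Difference between cortex and lung (horizontal axis, log2) for each measured gene of the pathway lists and the proneural list (rows); filled points were called, red higher in cortex and blue higher in lung, and names are given for called genes beyond 1.4 log2 units. Most genes of the receptor cleavage, nuclear and trafficking lists lie within 1 log2 unit of 0, while proneural factors reach 5.79.

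The sugar transferases of the fringe family, which set how receptors read their ligands, gave 1 call. Rfng was 1.96-fold higher in cortex (adjusted p = 0.0272), a call that ended without cortex 72 or 18 or without lung 22, 19 or 18. A second Rfng probe set gave 0.74 without a call. Lfng lay at 10.56 ± 0.27 against 10.03 ± 0.12 (adjusted p = 0.0561), with its second probe set level (-0.01). It was called under 4 of 21 alternatives, among them without cortex 18 (adjusted p = 0.0419). Mfng lay at 10.19 ± 0.22 against 10.65 ± 0.15 (-0.47, adjusted p = 0.0714). In the list of glycosylation 5 of 6 genes were thus not called.

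Of 8 measured cleavage genes 2 secretase subunits were called and 6 not. Aph1b rose in cortex by 3.13-fold (adjusted p = 0.0119) and Psen2 in lung by 1.76-fold (adjusted p = 0.0183). Psen2 lost its call without cortex 22 or lung 19, and its second probe set gave -0.08 without a call. In the nuclear list 3 of 17 rose in cortex and 1 in lung. Rbpj itself was at 10.90, 10.92, 10.74 and 10.90 in cortex and 10.10, 9.59, 10.00 and 9.76 in lung, a 2.01-fold difference with no overlap (adjusted p = 0.00205). Its 2 other probe sets gave 0.94 and 0.44 without a call. The corepressor Tle3 was 1.92-fold higher in cortex (adjusted p = 0.00424). Another Tle3 probe set was called too (1.29), and those that gave 0.28 and 0.47 were not. Fbxw7, which marks the receptor's inner part for destruction (1.46-fold, adjusted p = 0.0479), and the acetyltransferase Kat2a, higher in lung (1.60-fold, adjusted p = 0.042), were each called with 5 of 21 alternatives. They lost their calls without any 1 array, except lung 22 for Fbxw7 and lung 19 for Kat2a.

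Of 15 trafficking and ubiquitin genes 3 rose in cortex, 0 were called towards lung (1 at an unadjusted p under 0.05 in limma) and 12 were not called. The deltex-type ligases Dtx4 (5.53-fold, adjusted p = 0.00362) and Dtx3 (1.97-fold, adjusted p = 0.00238) and Neurl1b, a ligase for ligand uptake (2.88-fold, adjusted p = 0.00273), were the 3. A second Dtx4 probe set gave 0.82 without a call. Proneural factors, which Hes proteins repress, were higher in cortex in 5 of 6 measured cases. Neurog2 reached 55.5-fold, the zinc finger factor Insm1 48.8-fold, Neurod1 19.7-fold, Neurod4 7.31-fold (adjusted p = 0.042) and Neurog1 3.92-fold. Other probe sets were not called for Neurog1 (-0.04), Neurod4 (1.21 and 0.08) and Neurod1 (2.51, adjusted p = 0.0587 over all probe sets), and the mean of the Neurod4 probe sets was not called either (1.39, adjusted p = 0.0959). The call of Neurod4 ended without any 1 array other than lung 18. As for Hes5, these differences were measured beside neuron means of 10.99 to 11.55 in cortex and 6.57 to 6.62 in lung.

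Similarity of profiles was read as a small root mean square difference between centred log2 values over the 8 arrays. For 3 members the most similar genes were sought, leaving out genes with clone-style names. For Dll4 they were the kinase gene Irak3 (0.22), the transporter gene Abcc4 (0.23) and the GTPase gene Gbp3 (0.23), of which 0 were called between tissues (adjusted p = 0.546, 0.926 and 0.586). For Notch3 they were Ckap5, a microtubule protein (0.11), Dbn1, an actin-binding protein of neurons (0.11), and Gnptg (0.12). Dbn1 and Gnptg were called higher in cortex, by 1.06 and 1.03 (adjusted p = 0.0315 and 0.0346). For Hes5 they were Samd14 (0.15), Rnft2 (0.16) and the catenin relative Arvcf (0.17), each called, with differences of 2.29, 1.93 and 2.14. All these genes were chosen by their profiles over the same arrays. Differences near that of the member therefore follow from the choice, and the calls are no separate result.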

How the data were processed

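The values the authors deposited are log2 expression of probe sets on Affymetrix mouse arrays. They name RMA and the affy package, per the submitters' processing notes, with versions not given in the sources used here. RMA corrects background, equalises arrays and summarises probes, so differences are relative to the rest of the array and are compressed near the low end. Per the labels' protocols, 15 to 30 ng of RNA was linearly amplified. Array medians lay between 6.59 and 6.72. Arrays have no read depth, and their number limits the precision.

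All 8 columns were mapped by sample identifier. Control probe sets (64) were left out. Of 45037 others, 34945 named 1 gene, 932 several and 9160 none here. Listed genes that the annotation did not name alone are not analysed here.

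Limma 3.58.1 in R 4.3.3 (lmFit, eBayes) was fitted over 18193 genes with tissue as the factor, and two-sided p-values were adjusted by Benjamini-Hochberg over all genes. The fit was tested on simulated data. No filter was used. SDs are over arrays. P-values measure the spread between litters' pools.

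Members and lists were chosen with earlier results of these data known. Named beside the members were up to 3 called genes per list and direction, called proneural genes, the nearest profiles of Dll4, Notch3 and Hes5, and Notch2, Dll1, Dll3, Heyl, Hes6, Nrarp, Lfng, Mfng and Rbpj. Vim, Hopx, Sox2, Pax6 and the mural genes were named as examples after their values were seen. The 21 alternatives covered weights, centring, scaling, priors, probe choice, a dim filter, a block and left-out arrays, 1 of them added after seeing the data.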

Additional observations from a re-analysis of the deposited data

Results flagged for a closer look

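In 78 groups of 4 arrays (the 10 members and 29 named genes in each tissue) 6 had an array whose gap to the nearest other exceeded Dixon's critical ratio, where chance gives about 1 in 20 groups. Lung 18 accounted for 3 of them. Hey1 was 9.58 there, against 10.92 for the next lung array (ratio 0.901), Notch4 was 11.62, against 11.09 (ratio at the critical value), and the corepressor gene Tle3 was 10.29, against 10.76. Cortex 19 accounted for 2, with Rbpj at 10.74 against 10.90 and Neurog1 at 5.68 against 7.44. On cortex 22 Neurod4 was 9.72, against 8.67 for the next array.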

How the results depend on the processing

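On the deposited scale 1 member was called towards cortex and 0 towards lung. Leaving out 1 array gave 1 to 2 towards cortex (2 without lung 72) and 0 to 1 towards lung (1 without lung 18). Towards lung there was 1 without both arrays numbered 18 and 2 with array quality weights. The labels do not say whether equal numbers mark 1 litter, and the data did not settle it: deviations of same-numbered arrays correlated by 0.33, -0.16, 0.01 and 0.31 for 72, 22, 19 and 18, and 4 of 8 arrays correlated best with their own number. A fit with the number as a replicate block called 1 member towards lung (Jag1, adjusted p = 0.0309). Of the pathway lists 14 were called towards cortex (12 to 15 without 1 array) and 4 towards lung (2 to 3). The latter became 1, 2, 2 and 1 without both arrays numbered 72, 22, 19 and 18, and 2 without cortex 72 and 18, an alternative added after seeing the data.

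With pan-endothelial scaling 5 members and 46 pathway genes were called towards cortex and 1 pathway gene towards lung. Differences then changed sign for Notch4 (0.85), Dll4 (1.32), Jag1 (0.71), Jag2 (0.87), Hey2 (0.058), Hes1 (1.26), Egfl7 (0.21), Heyl (0.95), Kat2a (0.78), Mfng (0.99) and Psen2 (0.64). This follows from the shift of all genes by that scaling. Without cortex 72 and 18, Notch4 (0.00069), Dll4 (0.52) and Jag2 (0.17) changed sign, as did Dll4 without both arrays numbered 18 (0.16). Dll4 ran from -0.43 to 0.30 when 1 array was left out. Of 210 values of members, 189 kept direction and call, 9 gained a call and 12 changed sign. Of 609 for the 29 named pathway genes, 512 kept both, 74 lost a call, 18 gained one and 5 changed sign. The cause was not tested. Low signal limits probe sets near the bottom of the scale.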
